A study of Mus musculus with 2 samples.

Results

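The 10 genes described here are feedback and target genes of WNT signalling: Lef1, Sp5, Axin2, Nkd1, Rnf43, Znrf3, Notum, Wif1, Apcdd1 and Lgr5. They were taken by name, as every probe whose gene symbol on the array design is one of these, with RefSeq accessions used for older names. This gave 14 of the 39429 probes on the array and 10 of 30011 gene names. The rule uses names and no measured value, but the 10 genes were chosen with earlier results of these data known. Shares of all genes set beside their counts below are therefore a description and not a test. Of the 14 probes, 13 were well above background and tested, at least 1 for each gene, and the exception was the second probe of Lgr5.

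WNT proteins are secreted ligands that bind Frizzled receptors together with an LRP coreceptor. Binding spares beta-catenin from destruction, and beta-catenin then enters the nucleus and acts with DNA-binding factors of the TCF and LEF family. Many of the genes switched on in this way code for proteins that restrain the pathway, so their RNA is widely used as a readout of it. In the embryonic ureter, ligands made by the epithelium, among them Wnt7b and Wnt9b, act on the surrounding mesenchyme that later forms smooth muscle.

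RNA was prepared from embryonic mouse ureters (NMRI, E13.5). The mutant ureters were Pax2-cre/+;Fgfr1(fl/?);Fgfr2(fl/fl), and the control ureters were Fgfr1(fl/?);Fgfr2(fl/?) without the transgene, where the question mark stands for a wild-type or a floxed allele. All 4 pools thus carried floxed alleles of both receptors, and only mutant pools carried the Cre. Mutant ureters with and without a second floxed Fgfr1 allele may have been pooled together. Deletion is limited to cells in which Pax2-cre is or was active, and other cells of the ureter keep the receptor. Mutant and control RNA were hybridised together on 2 Agilent two-colour arrays. On array 1 both pools were female and Cy5 marked the mutant, while on array 2 both were male and Cy3 marked the mutant, so dye and sex cannot be told apart as a source of any difference between the arrays. No label says how many embryos went into a pool, so p-values rest on these 2 arrays alone and do not measure the spread between embryos. The limma test used below combines a gene's spread between the arrays (1 residual degree of freedom) with that of all genes (6.32 prior degrees of freedom). A small SD of a gene therefore need not give a small p.

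All values below are log2 ratios of mutant over control, given for array 1 and then array 2, or log2 levels of 1 channel after normalisation. A mean ratio is given ± SD (n = 2 arrays), and a negative ratio is lower in the mutant. Each probe was printed 4 times per array, and the spread over these spots is technical. In each channel 67.9% to 77.0% of probes were well above background and no spot was saturated. All 15 markers of ureteric epithelium and all 12 of ureteric mesenchyme were well above background. The targeted gene was not lower at its probes: Fgfr2 was at 0.27 and 0.06 with the brighter probe and at 0.08 and 0.09 with the other. The 3 Fgfr1 probes disagreed, at 0.27 and -0.44 for the brightest, 0.026 and 0.51 for the next and 0.17 and -0.16 for the dimmest. Which exons are floxed is not stated in the labels, and a probe outside them checks nothing.

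Most of the 10 genes were lower in the mutant pools, by small amounts and mainly on the array of the male pools. Of the 10, 8 were lower on both arrays, where 21.4% of all 20923 tested genes were, and of the 13 probes 10 were, where 23.2% of all tested probes were. Singly, array 1 had 8 of the 10 genes lower (50.1% of all genes) and array 2 had 9 (49.2%). Notum, a secreted enzyme that inactivates WNT ligands, was the 1 gene higher on both arrays, where 22.1% of all genes were. Apcdd1, a membrane-bound inhibitor of WNT signalling, went opposite ways. The median of the 10 mean ratios was -0.24, with -0.11 on array 1 and -0.38 on array 2, while the medians of all genes were -0.0005 and 0.0053. The background correction used here adds an offset of 50 to both channels, which shrinks the ratios of dim probes. With the processed signals of the scanner software, the 10 had medians of -0.115 and -0.503. Those of all genes were then -0.0182 and -0.0155.

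None of the 10 genes passed limma's test at an adjusted p of 0.05, which 0.0287% of all genes did, and each had an adjusted p of 0.99997. None of their 13 probes passed it either, against 0.0218% of all probes. At an unadjusted p under 0.05 there was 1 of the 10, Notum, against 4.04% of all genes. The limma 95% interval of the mean ratio held 0 for 9 of the 10 genes, all but Notum. None of the 10 was at least 1.5-fold away in the same direction on both arrays, where 0.392% of all genes were. With 2 arrays an exact permutation test cannot give a p below 0.5. In bulk RNA such as this, fewer cells of a type and less RNA per cell cannot be told apart.

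**Figure D1:**
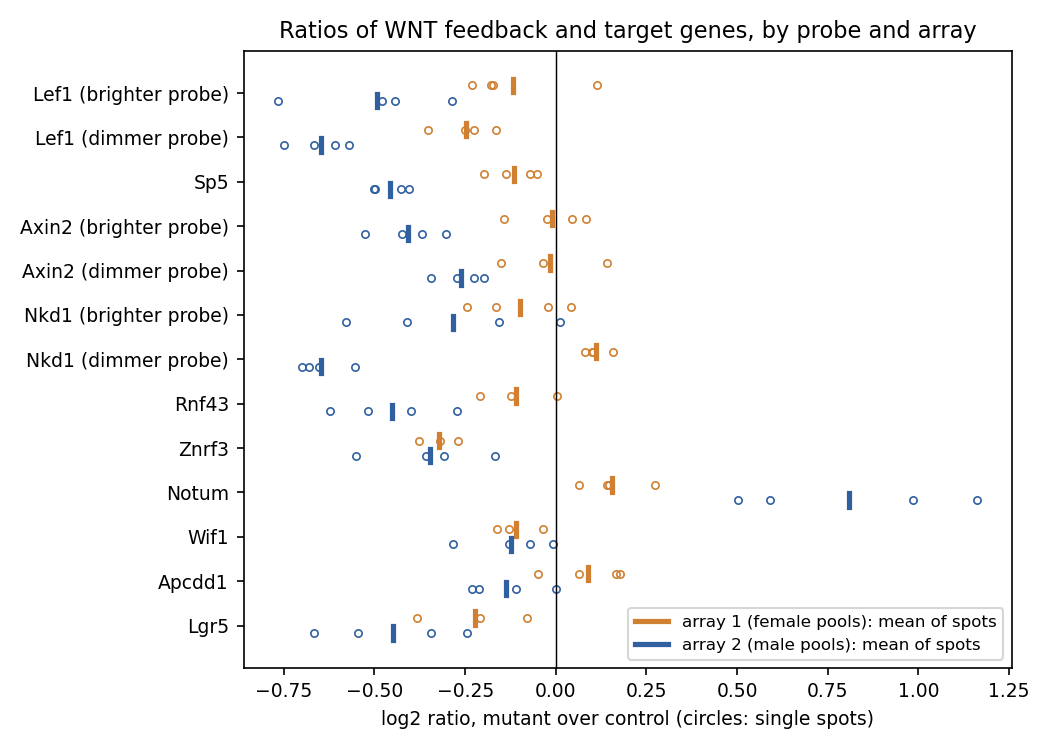
Log2 ratios (x axis, mutant over control) of the 13 tested probes (y axis), with open circles for single spots and bars for their mean, orange for array 1 and blue for array 2. On array 2 the spots of most probes lie left of 0, those of Notum lie between 0.50 and 1.16, and the 2 probes of Nkd1 differ in sign on array 1.

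Lef1 and Sp5 are nuclear factors of the pathway. Lef1 is a DNA-binding partner of beta-catenin whose own gene responds to WNT signalling. Its brighter probe (mm9 chromosome 3, 130926200 to 130926259) read 10.69 for mutant and 10.81 for control RNA on array 1, and 10.36 and 10.85 on array 2. Both mutant channels thus lay below both control channels, which held for 5 of the 10 genes and for 11.5% of all genes, while for none of the 10 and 12% of all genes both mutant channels lay above. The ratios were -0.12 and -0.49, a mean of -0.31 ± 0.27 with a limma 95% interval from -0.69 to 0.08. On array 2 all 4 spots were below 0, at -0.77, -0.48, -0.44 and -0.29, while on array 1 they were at -0.23, -0.18, -0.17 and 0.11.

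The second Lef1 probe gave larger ratios in the same direction. It spans a splice junction, from 130907851 to 130926012 on the same chromosome. Its ratios were -0.25 and -0.65, and its mean of -0.45 had an unadjusted p of 0.0268 and an adjusted p of 0.99998 in limma's fit over all probes. All 8 of its spots were below 0, so the sign on array 1 was steadier here than at the brighter probe.

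Sp5 is a zinc-finger transcription factor induced directly by WNT signalling. It was a dim gene, with background-subtracted signals of 109.3 for mutant and 107.1 for control RNA on array 1 and 70.9 and 132 on array 2, in scanner units. Its probe lies on chromosome 2 from 70315688 to 70315747. The normalised levels were 7.47 and 7.58 on array 1 and 7.03 and 7.48 on array 2, so that again both mutant channels lay below both control channels. The ratios were -0.11 and -0.46, a mean of -0.29 ± 0.24. The 4 spots agreed closely, between -0.20 and -0.05 on array 1 and between -0.50 and -0.41 on array 2. With the processed signals of the scanner software in place of the normexp correction, the mean was -0.54 (adjusted p = 0.965).

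The windows upstream of the gene starts were searched for the core that TCF and LEF factors bind, since these genes are known for such sites. The letters CTTTG followed by AA, AT, TA or TT were searched on both strands in the 250 bases before each start in RefSeq's promoter table (GRCm38.p6). Of all 32851 windows, 14.8% held a match. Windows were found for 6 of the 10 genes (Lef1, Sp5, Axin2, Nkd1, Rnf43 and Wif1), 10 in all, and 2 of the windows held a match. Notum, Znrf3, Lgr5 and Apcdd1 had none in the table. Sp5 held 2 matches, 222 and 104 bases before the start, and 1 of the 4 Lef1 windows, that of its start farthest downstream, held 1 match 147 bases before the start. Both matching windows are written 5′ to 3′ on the plus strand, with the matches in capitals, Sp5 at chr2:70474673-70474922 and Lef1 at chr3:131156044-131156293.
Sp5: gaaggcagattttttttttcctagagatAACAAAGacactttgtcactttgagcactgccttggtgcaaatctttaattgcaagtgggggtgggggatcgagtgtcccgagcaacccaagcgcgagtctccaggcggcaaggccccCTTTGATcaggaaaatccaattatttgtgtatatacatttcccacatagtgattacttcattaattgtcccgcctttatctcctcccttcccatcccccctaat
Lef1: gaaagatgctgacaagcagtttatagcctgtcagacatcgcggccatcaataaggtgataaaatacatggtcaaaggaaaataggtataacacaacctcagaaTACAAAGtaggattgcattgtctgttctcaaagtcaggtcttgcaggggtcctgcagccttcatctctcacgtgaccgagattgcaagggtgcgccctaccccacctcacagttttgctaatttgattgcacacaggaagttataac
A match describes the letters of the window and is not a measured site, and sites outside these windows were not searched.

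Axin2 and Nkd1 code for inhibitors inside the cell. Axin2 is a scaffold of the complex that marks beta-catenin for destruction and is a widely used target gene of the pathway. Its brighter probe (chromosome 11, 108812034 to 108812093) was level on array 1, with 8.81 for mutant and 8.82 for control RNA, and lower on array 2, with 8.36 and 8.77. The ratios were -0.0094 and -0.41, a mean of -0.21 ± 0.28. On array 1 the spots lay on both sides of 0, from -0.14 to 0.08, and on array 2 all 4 lay between -0.53 and -0.30. The 2 Axin2 probes lie 8048 bases apart, and the dimmer one is shown because it measures another stretch of the same transcript (mm9 chr11:108803927-108803986, in lower case throughout).
Axin2 dimmer probe: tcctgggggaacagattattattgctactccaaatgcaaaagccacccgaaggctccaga
It gave the same picture, with ratios of -0.015 and -0.26, at background-subtracted signals of only 48.7 and 43.6 on array 1 and 30.6 and 48.2 on array 2. With the processed signals of the scanner software it was at -0.051 and -0.775, and the brighter probe at 0.015 and -0.572.

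Nkd1, naked cuticle, binds Dishevelled and dampens the WNT signal. Its brighter probe (chromosome 8, 91116160 to 91116219) read 12.60 for mutant and 12.70 for control RNA on array 1 and 12.40 and 12.68 on array 2. The ratios were -0.098 and -0.28, a mean of -0.19 ± 0.13. Its spots on array 2 were spread from -0.58 to 0.01. The dimmer probe (91118468 to 91118527) went opposite ways on the 2 arrays, at 0.11 and -0.65, and its spots were tight, from 0.08 to 0.16 and from -0.70 to -0.55. On array 1 the spots of the 2 Nkd1 probes did not overlap, those of the brighter running from -0.25 to 0.04.

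Rnf43 and Znrf3 are related ubiquitin ligases of the cell surface that remove Frizzled receptors and so lower the response to WNT. Rnf43 (chromosome 11, 87548958 to 87549017) read 11.09 for mutant and 11.20 for control RNA on array 1 and 10.99 and 11.44 on array 2. Its ratios were -0.11 and -0.45, a mean of -0.28 ± 0.24, with spots from -0.62 to -0.27 on array 2. Znrf3 (chromosome 11, 5180918 to 5180977) had nearly even ratios, -0.32 and -0.35. Its levels were 6.97 and 7.29 on array 1 and 6.81 and 7.15 on array 2, and both mutant channels lay below both control channels for Znrf3 and for Rnf43.

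Every Znrf3 spot used was below 0, between -0.38 and -0.27 on array 1 and between -0.55 and -0.17 on array 2. The mean was -0.33 ± 0.018 with an unadjusted p of 0.0555 and an adjusted p of 0.99997 in limma. The gene was dim, with background-subtracted signals of 55.5 for mutant and 76.2 for control RNA on array 1 and 53.2 and 89.9 on array 2. With the processed signals the mean was -0.76 (adjusted p = 0.557). In the authors' deposited table Znrf3 was at linear folds of -1.60 and -1.69, where the minus sign marks lower in the mutant.

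Notum, Wif1 and Apcdd1 act outside the cell or at its surface. Notum removes the lipid that WNT ligands need to bind Frizzled. Its probe (chromosome 11, 120515209 to 120515268) read 11.00 for mutant and 10.84 for control RNA on array 1 and 12.18 and 11.37 on array 2. Both channels were therefore higher on the array of the male pools, and the control channel of array 2 was above the mutant channel of array 1. The ratios were 0.16 and 0.81, a mean of 0.48 ± 0.46 with a limma 95% interval from 0.04 to 0.93, an unadjusted p of 0.0374 and an adjusted p of 0.99997.

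All 8 Notum spots were above 0. On array 1 they lay between 0.06 and 0.27, and on array 2 they were at 0.50, 0.59, 0.99 and 1.16. The background-subtracted mutant signals of these last 4 spots were 2903, 3089, 5323 and 6240, and the control signals were 2640, 2640, 3522 and 3672. The spots of array 2 thus formed a dimmer and a brighter pair, and the ratio was higher in the brighter pair. After median centring in place of loess the mean was 0.33, and Notum was then no longer higher on both arrays.

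Wif1 is a secreted protein that binds WNT ligands. Its probe (chromosome 10, 120537079 to 120537138) read 9.42 for mutant and 9.53 for control RNA on array 1 and 8.83 and 8.96 on array 2. The ratios were -0.11 and -0.12, a mean of -0.12 ± 0.0095, so the 2 arrays gave nearly the same small difference. Both channels were lower on array 2, by 0.57 in the control and 0.59 in the mutant. Apcdd1 was at 8.92 and 8.83 on array 1 and at 8.73 and 8.87 on array 2. Its ratios of 0.090 and -0.14 gave a mean of -0.024 ± 0.16, and its limma 95% interval ran from -0.38 to 0.33.

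Lgr5 is a receptor for R-spondins, which sustain WNT signalling by removing Rnf43 and Znrf3 from the membrane. Its tested probe (chromosome 10, 114887403 to 114887462) read 7.64 for mutant and 7.86 for control RNA on array 1 and 7.18 and 7.63 on array 2. The ratios were -0.22 and -0.45, a mean of -0.34 ± 0.16 with an unadjusted p of 0.0617 and an adjusted p of 0.99997 in limma. With the processed signals the mean was -0.58 (adjusted p = 0.831). Every Lgr5 spot used was below 0, from -0.38 to -0.08 on array 1 and from -0.67 to -0.25 on array 2. The other Lgr5 probe (114900686 to 114900745) was not well above background in any channel and was not tested.

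The ratio was lower on array 2 than on array 1 for 9 of the 10 genes, where it was for 49.8% of all genes, and Notum was the exception. On array 2, 6 of the 10 had a log2 ratio of -0.32 or lower, where 10.9% of all genes were, and on array 1 the 1 such gene was Znrf3, where 2.91% of all genes were. At 0.32 or higher on array 2 there was 1 of the 10, Notum, and 14% of all genes. This threshold was chosen after the values were seen. Array 2 was the wider one, with an SD over all genes of 0.325 against 0.208 on array 1. Placed among all genes of the same array, Lef1 had 22.6% of genes below it on array 1 and 3.98% on array 2, Axin2 47.8% and 6.84%, Sp5 23.2% and 4.93%, and Rnf43 24.1% and 5.13%. Znrf3 was placed lower on array 1, with 2.91% of genes below it, than on array 2, with 9.58%. Notum had 82.2% and 97.9% of genes below it.

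**Figure D2:**
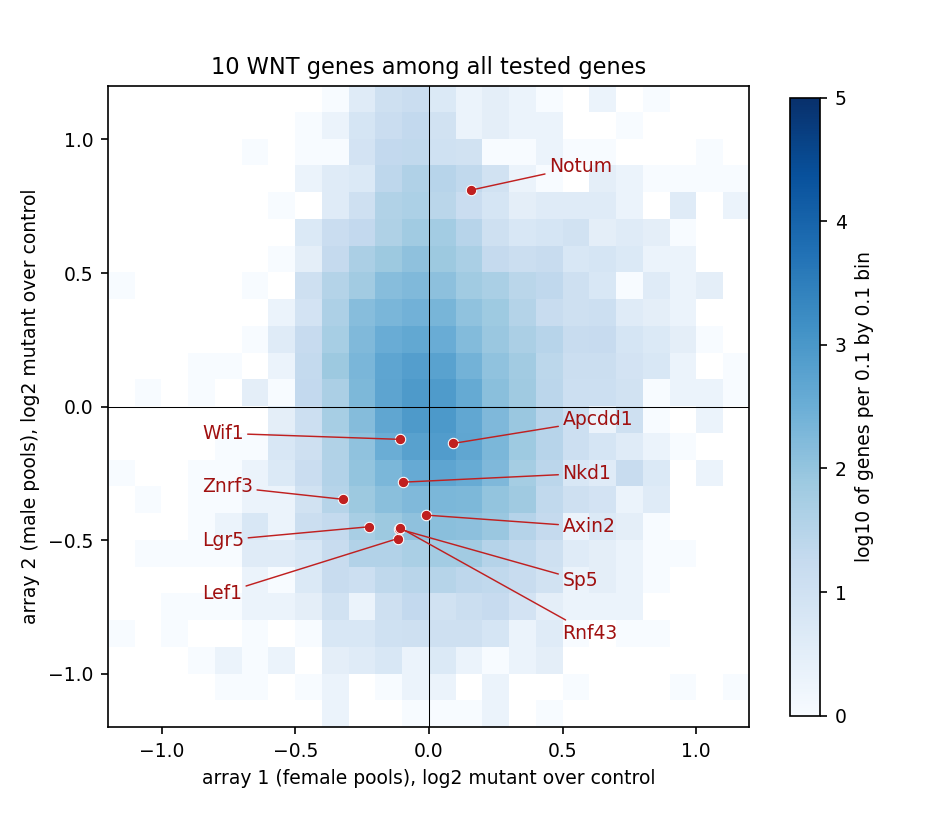
Log2 ratio (mutant over control) of the 10 genes as red points on array 1 (x axis) and array 2 (y axis), over a grid in which blue shade is the log10 number of tested genes per bin of 0.1 by 0.1. The 8 genes lower on both arrays sit in the lower left and 4 of them (Lef1, Sp5, Rnf43 and Axin2) lie near -0.1 or 0 on array 1 and between -0.5 and -0.4 on array 2. The plot ends at 1.2 and leaves out 152 genes.

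Levels of single channels were also compared between the arrays. The control channels differed by at most 0.25 for 8 of the 10 genes, the exceptions being Notum and Wif1, which is near the 80.2% of all genes, and the median difference, array 2 minus array 1, was -0.028. The mutant channels were lower on array 2 for 9 of the 10 genes, where they were for 52.1% of all genes, with a median difference of -0.27. For Axin2, for example, the control channels differed by -0.045 and the mutant channels by -0.44, and for Lef1 by 0.039 and -0.34. Over all genes these differences had an SD of 0.224 in the control and 0.396 in the mutant channels, so the mutant channels of all genes also differed more between the arrays.

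**Figure D3:**
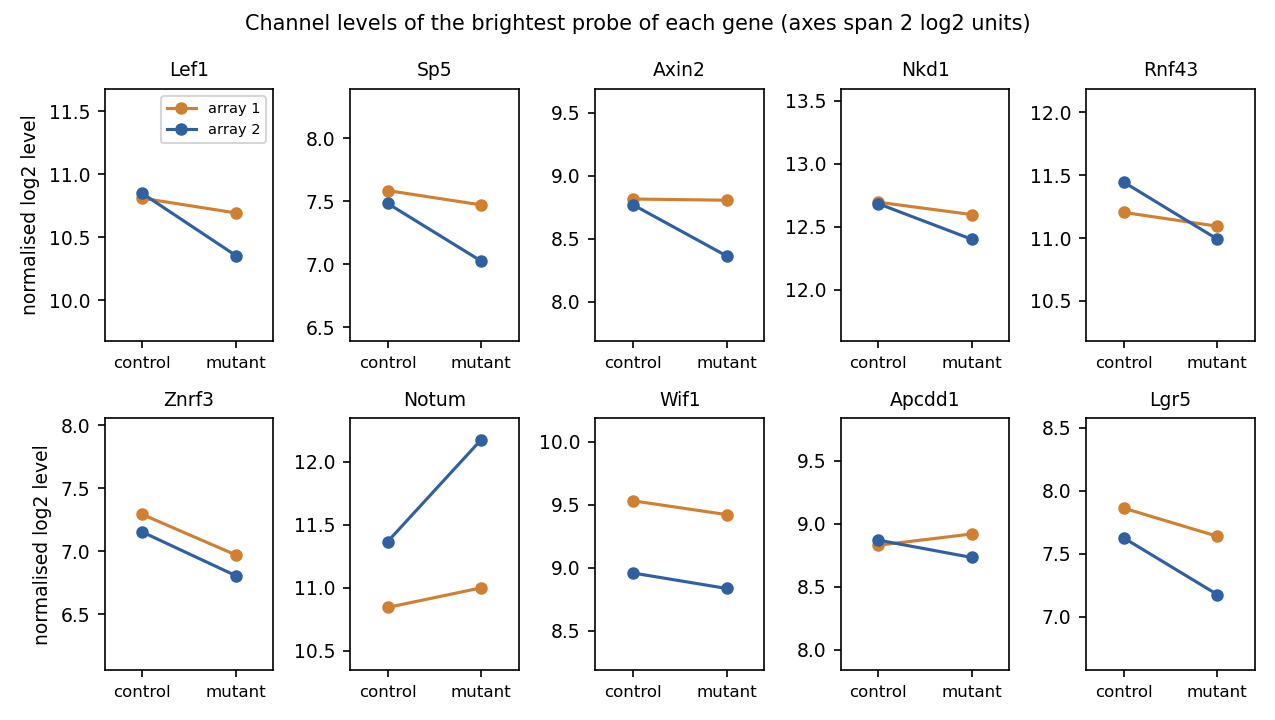
Normalised log2 level (y axis) of the brightest probe of each gene in the control and mutant channels (x axis), with a line for each array, orange for array 1 and blue for array 2, and every panel spanning the same range. The control points of Lef1, Axin2, Nkd1 and Apcdd1 nearly coincide while the mutant points part, and for Wif1 and Notum the whole line is shifted between the arrays.

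The other genes of the pathway had a median nearer to that of all genes. Of 99 further pathway genes taken by their roles, 87 were tested. Of these, 29 were lower and 17 higher on both arrays, where 21.4% and 22.1% of all genes were. None passed limma's adjusted p, which 0.0287% of all genes did. In limma 8 had an unadjusted p under 0.05, against 4.04% of all genes. The share lower on both arrays and the share at that p were thus above those of all genes. Their median was -0.048, with -0.031 on array 1 and -0.072 on array 2. Among 13 tested ligands, 4 were lower and 3 higher on both arrays. The epithelial ligand Wnt7b was at -0.35 and -0.62, Wnt9b at -0.42 and -0.42, and Wnt2 at -0.25 and -0.21. The median of the list was 0.0037.

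Receptors and their partners showed no common direction. Of 15 Frizzled receptors and coreceptors, 5 were lower and 5 higher on both arrays, where 21.4% and 22.1% of all genes were. Fzd10 was at -0.14 and -0.99, Fzd6 at 0.15 and 0.55, and Fzd9 at 0.37 and 0.24. Of 5 tested R-spondins and LGR receptors, Lgr4, a close relative of Lgr5, was at -0.062 and -0.61, and Rspo2 at 0.13 and 0.006. Neither of the 2 genes for ligand secretion had the same sign on both arrays. Among 12 secreted inhibitors, 3 were higher and 2 lower, with Sfrp4 at 0.67 and 0.25, Sostdc1 at -0.42 and -0.26, and Tpbg, a membrane protein that inhibits the pathway, at -0.20 and -0.35.

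The transducers and the remaining targets were lower more often than higher. Of 23 cytoplasmic and nuclear transducers, 10 were lower and 2 higher on both arrays, where 21.4% and 22.1% of all genes were. Axin1, the close relative of Axin2, was at 0.62 and 0.29, and Dvl1, a Dishevelled protein, at -0.16 and -0.51. The 3 probes of Tcf7l2, a TCF factor, disagreed, at -0.037 and -1.10 for the brightest, 0.055 and 0.038 for the next and -0.42 and -0.66 for the dimmest. Of 19 tested genes known elsewhere as beta-catenin targets, 8 lay below 0 and 3 above 0 on both arrays. Fgf9 was at -0.62 and -0.49, Jun at -0.15 and -0.94, and Tbx3 at -0.37 and -0.50. Their median was -0.051, against -0.24 for the 10 feedback and target genes, and that difference was not tested.

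Markers of ureteric mesenchyme and epithelium were mostly lower on both arrays. Of 12 markers of ureteric mesenchyme, 11 were lower and 1 higher on both arrays, where 21.4% and 22.1% of all genes were. Their medians were -0.15 and -0.44, next to -0.11 and -0.38 for the 10 WNT genes. Foxf1, a mesenchymal transcription factor, was at -0.64 and -0.81 with its brighter probe and at -0.11 and -0.31 with the dimmer. Ptch1, the hedgehog receptor, was at -0.22 and -0.50 with its brighter probe and at -0.26 and -1.16 with the dimmer. Bmp4 was at -0.042 and -0.46. The mean log2 level of the mesenchymal markers was 12.70 and 12.48 in the mutant channels and 12.89 and 12.91 in the control channels of array 1 and array 2. Of 15 epithelial markers, 9 were lower on both arrays, with medians of -0.23 and -0.35 and mean levels of 10.98 and 10.94 in the mutant and 11.15 and 11.22 in the control channels. Wnt7b and Wnt9b are among the epithelial markers, and Tbx3 and Bmp4 are among the mesenchymal markers, so these lists share genes with the pathway lists.

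Markers of blood, skeletal muscle and liver cells were mostly higher on both arrays, where 22.1% of all genes were higher and 21.4% lower. Of 14 macrophage and leukocyte markers 12 were higher and none lower on both arrays, with mean levels of 9.74 and 9.82 in the mutant and 9.13 and 9.16 in the control channels. S100a8 (adjusted p = 0.014) and S100a9 (adjusted p = 0.014) rose by limma's test, and no other marker passed it. Both calls were lost in limma after median centring (adjusted p = 0.156 for each) and with no filter on dim probes (adjusted p = 1 for each). Of 12 erythroid markers 11, of 8 skeletal muscle markers 7, and of 6 liver markers 6 were higher on both arrays, with Hba-a2 at 1.48 and 0.38, Myog at 0.88 and 0.84 and Afp at 2.22 and 0.78. Mean levels in the mutant and control channels were 12.95 and 12.04 on array 1 and 12.98 and 12.63 on array 2 for erythroid markers, 8.65 and 8.17 and then 8.79 and 8.08 for skeletal muscle, and 8.89 and 7.44 and then 7.97 and 7.54 for liver. Myf5 and Ckm of the muscle list and Apoh of the liver list were not well above background. The erythroid and liver markers had medians of 0.91 and 1.57 on array 1 and of 0.39 and 0.32 on array 2. Of 10 neuronal markers 9 were higher and 1 lower on both arrays, of 8 endothelial 5 and 1, of 8 smooth muscle 3 and 2, of 9 nephron 2 and 2, and of 6 tested gonad and adrenal markers 3 and none, with Amh and Dazl not well above background. The part of the tissue makeup in the ratios of the 10 WNT genes was not tested.

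**Figure D4:**
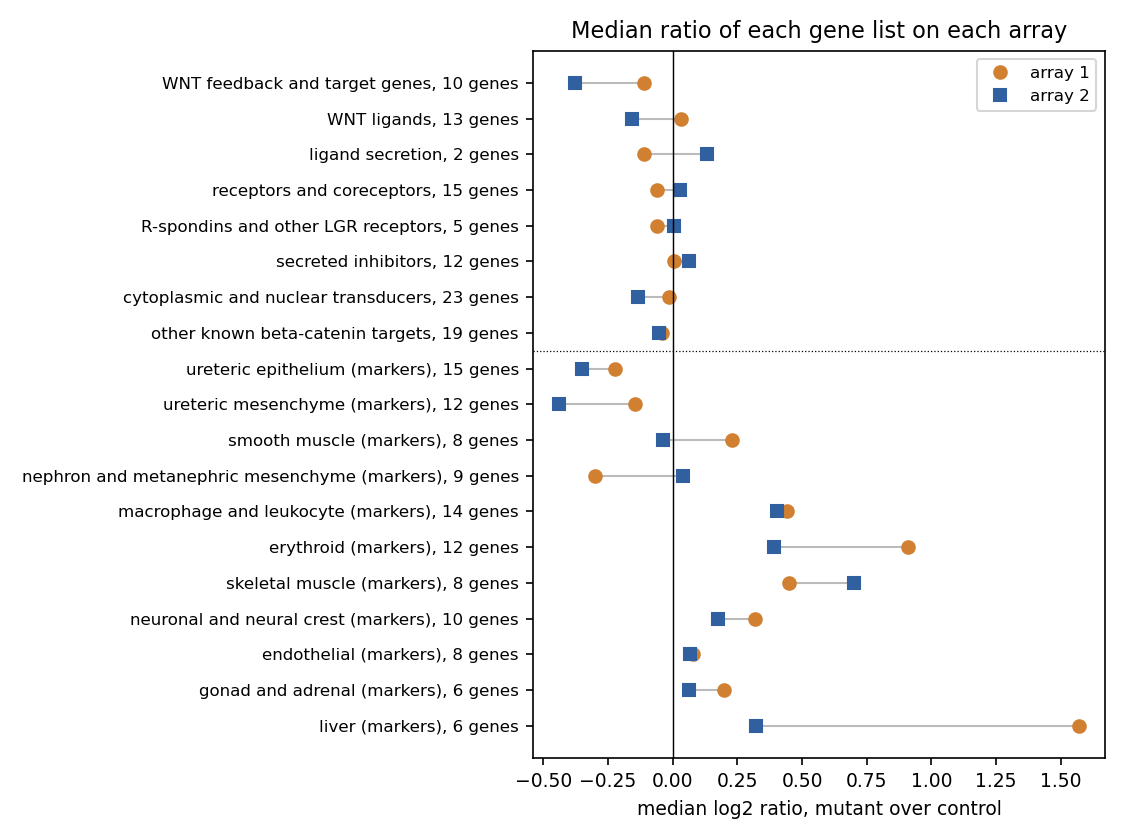
Median log2 ratio (x axis, mutant over control) of each gene list (y axis, with the number of tested genes), as orange circles for array 1 and blue squares for array 2, pathway lists above and marker lists below the dotted line. The 10 WNT genes lie at -0.11 and -0.38, close to the mesenchymal markers at -0.15 and -0.44 and the epithelial markers at -0.23 and -0.35. The liver markers reach 1.57 on array 1.

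The scaling of the arrays changed some of these counts. Median centring left 9 of the 10 WNT genes lower on both arrays and none higher. The shares over all genes were then 38.1% and 15.5%. The median of the 10 was then -0.29, and that of all genes -0.084. There were 7 of the 10 lower and 1 higher on both arrays in the authors' deposited table, where 23.5% and 21% of all genes were. There Axin2 was at linear folds of 1.01 and -1.48, Lef1 at -1.07 and -1.43, Sp5 at -1.07 and -1.84 and Notum at 1.10 and 1.77.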

How the data were processed

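Mutant and control RNA (150 ng labelling input each, per the labels' protocols) shared 2 two-colour arrays, and the submitters' processing notes name Feature Extraction 10.7.3.1 for reading them. Mean and local background signals are intensity values without normalisation, per the file headers, and probe positions are on mm9. Per the file headers, the scanner software subtracted background, detrended and dye-normalised the processed signals, also intensity values. The authors' deposited table holds 1 signed linear fold, a score, per probe and array. It follows the processed signals (correlation 0.973 and 0.991 across tested probes), its direction is mutant over control, its column medians are 1, and its centring and steps are unknown. Well-above-background, saturation and outlier columns are other values, 0 or 1 per spot, as deposited.

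From these, background was corrected with normexp (offset 50), and loess normalisation run within each array (span 0.3, weight 0 for control spots; limma 3.58.1, R 4.3.3), outlier spots left out (3.35% and 3.05%), spots averaged, and array 2 turned. Levels per channel follow Aquantile normalisation. Probes with a share above 0.5 of spots well above background in 1 group on both arrays were tested (27493 probes), each gene by its brightest probe (20923 genes). Symbols came through unversioned RefSeq accessions (28328 of 39429 probes matched), else from the design. Tests used lmFit and eBayes against 0 with 1 residual and 6.32 prior degrees of freedom and Benjamini-Hochberg adjustment over all genes, or over all probes for single probes, and were tested on simulated data. The 10 genes, the lists and the alternatives were chosen with earlier results of these data known, as was the rule for names (all 10 genes, per pathway list the 3 largest with 1 sign on both arrays, per marker list whose median is 0.3 from all genes the 2 largest, and Fgfr1, Fgfr2, Foxf1, Ptch1, Wnt7b, Wnt9b and Bmp4). Not every gene this rule names is printed.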

Additional observations from a re-analysis of the deposited data

Results flagged for a closer look

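Values of the female and the male array that lay on opposite sides of 0 were marked, and the differences between the arrays were not tested. Apcdd1 was at 0.09 on the female array and at -0.14 on the male array. The dimmer Nkd1 probe was at 0.11 on the female array and at -0.65 on the male array. Groups of 1 array allow no check for a sample apart from the others.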

How the results depend on the processing

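With 1 exception, the 10 genes kept the sign of their mean ratio in all 93 comparisons with an alternative (processed signals, median centring, no filter on dim probes, probes well above background in both groups, mean of a gene's probes, each probe by itself, the authors' deposited table, and leaving out an array). The exception was Apcdd1, which ran from -0.14 to 0.090 on 1 array alone. Many of these comparisons could not change a sign, so their count does not measure robustness. The changes of filter and the brightest probe taken by itself repeated the main ratio, as did the mean for genes with 1 tested probe. Leaving out an array cannot turn a gene that has the same sign on both. The dimmer probes of Lef1, Nkd1 and Axin2 entered only as features of their own or in the mean of a gene's probes, and that of Nkd1 is at 0.11 on array 1 against a mean of -0.27. No alternative called any of the 10, and the lowest adjusted p in limma was 0.557 (Znrf3, processed signals). Znrf3 was the 1 gene past 1.5-fold on both arrays under the processed signals, as it was under the authors' deposited table, and the other processing alternatives gave 0. Higher on both arrays there were 0 after median centring. The count of the 10 at an unadjusted p under 0.05 in limma, 1 in the main fit, also moved. It was 4 under the mean of a gene's probes, against 809 of all 20923 genes. It was 2 under the processed signals (1087 of 20923), median centring (853 of 20923), the authors' deposited table (1032 of 20923) and no filter on dim probes (1076 of 30011). At a log2 ratio of -0.32 or lower on array 1, a count added after the data were seen, there were 2 under the processed signals, 2 under the authors' deposited table and 0 after median centring. On 1 array alone, with no test, the count of the 10 genes past 1.5-fold ran from 0 to 1, the count higher from 1 to 2, and the count lower from 8 to 9. The median ran from -0.377 to -0.11, the further pathway genes lower from 48 to 51, and those higher from 36 to 39. Each ratio already pairs a mutant with a control pool on the same array, so the test of the ratios against 0 is a paired one. Both arrays form 1 group, and no further pairing was possible. The number of arrays limits precision, and for Sp5, Znrf3, Lgr5 and the dimmer Axin2 probe so do signals near background.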
